A study of Mus musculus with 24 samples.

Results

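The genes for 8 CC chemokines, the secreted proteins that draw monocytes and other leukocytes, were followed across all 8 groups of a study of mouse microglia: Ccl2, Ccl3, Ccl4, Ccl6, Ccl7, Ccl9, Ccl12 and Ccl22. They were taken by name from the deposited normalized table. They make up 8 of the 18919 genes listed in the count table, and all 8 were among the 13294 genes that passed a filter on low counts. Ccl22 lay at 0.197 to 1.45 CPM in untreated libraries, and 3 of those 6 reached the filter's minimum.

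CC chemokines carry a pair of adjacent cysteines near the start of the mature protein and act on G-protein-coupled receptors of the CCR family. In the mouse, CCL2, CCL7 and CCL12 are the monocyte chemoattractant proteins, whose shared receptor CCR2 brings inflammatory monocytes out of the bone marrow and into injured tissue. CCL3 and CCL4 are the macrophage inflammatory proteins, and CCL3 acts on CCR1. CCL6 and CCL9 are rodent ligands of CCR1, and CCL22 acts on CCR4, which is carried mainly by T cells. Microglia, the resident macrophages of the brain, are a known source of these chemokines once Toll-like receptor 4 (TLR4) is engaged by lipopolysaccharide (LPS). CD14 is the surface co-receptor that passes LPS to TLR4 and its partner MD-2.

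Primary microglia labelled as from p0 mice came from the C57BL/6 strain (WT) or from B6.129S4-Cd14tm1Frm/J mice, which lack CD14 in all cells (KO). Each genotype was left untreated or stimulated for 3 h with Re-LPS, a truncated LPS, at 0.1 or 10 ng/ml, or with mouse fibronectin (FN), a matrix and plasma glycoprotein, at 100 µg/ml. Total RNA was sequenced in 3 libraries for each of the 8 groups, described by the series as separate cell preparations, which gives 24 libraries. Libraries are numbered 1 to 3 as in their labels.

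Levels are given as CPM, a gene's count per 1000000 counts of a library size scaled for composition. Each change is a log2 fold change with its standard error after ±, estimated by edgeR's quasi-likelihood test from 3 libraries a group. A gene is called where its p-value, adjusted by Benjamini and Hochberg over all 13294 genes, is under 0.05. Total counts ran from 14939019 to 22143774 per library. The targeted gene, Cd14, lay at 2.14 to 6.37 CPM in KO libraries and at 338 to 5329 CPM in WT libraries. Summed microglial markers (15 genes) lay between 7962 and 11341 CPM in every library, although P2ry12 and Tmem119 were at most 24.6 and 44.2 CPM and Siglech was at 0 in 11 of 24. Of the blood monocyte markers, Ly6c2, Ly6c1, Plac8 and Cd177 were at 0 in 20 to 23 of 24 libraries and Ccr2 reached 8.0 CPM at most. Neutrophil and lymphocyte markers summed to at most 0.975 and 0.353 CPM. Markers of border macrophages summed to 379 to 1051 CPM, with Mrc1 (123 to 382 CPM) and Ms4a7 (209 to 557 CPM) the highest. Pf4 and F13a1 reached 117 and 22.5 CPM, and Cbr2 and Lyve1 only 0.743 and 0.398 CPM. Cd163 was at 0 in 15 of 24 libraries. Markers of the oligodendrocyte lineage summed to 156 to 478 CPM, where Cnp and Mbp reached 165 and 143 CPM and Mog and Sox10 3.59 and 4.64 CPM. Markers of neurons summed to 3.78 to 97.9 CPM and of astrocytes to 11.5 to 45.1 CPM. Those of vascular and fibroblast cells moved with the chemokines in part. In WT they summed to 2.32 to 9.14 CPM untreated, 11.9 to 35.3 CPM at LPS 10 ng/ml and 12.8 to 34 CPM with FN. In KO they summed to 1.44 to 8.78 CPM untreated and 20.3 to 34 CPM at LPS 10 ng/ml. With FN the KO sums, 2.16 to 9.89 CPM, overlapped the untreated ones. Pdgfrb (29.3 CPM at most) and Acta2 (16.8 CPM) were the highest of the list, while Cldn5 and Lum were at 0 in 23 of 24 libraries. Microglial markers summed lower at LPS 10 ng/ml than untreated, without overlap: 8064 to 9345 against 10036 to 11341 CPM in WT, where FN gave 8616 to 8928 CPM, and 7962 to 8784 against 9662 to 9960 CPM in KO. The part of these shifts in the chemokine values was not tested. The ribosomal RNA precursor Rn45s took 3.62% to 8.21% of counts in library 3 of WT LPS 0.1 ng/ml, library 3 of WT LPS 10 ng/ml and library 2 of KO LPS 0.1 ng/ml, and under 1% in the other 21. In bulk RNA, more transcript per cell and more cells that express the gene cannot be told apart.

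Of the members, 7 lie in the CC chemokine cluster of chromosome 11 (GRCm38, the mm10 build, with GENCODE coordinates). Ccl2 spans 82035571 to 82037453, Ccl7 82045712 to 82047525 and Ccl12 82101845 to 82103400, all on the plus strand. Further along are Ccl9 (83572919 to 83578636), Ccl6 (83587882 to 83593087) and Ccl3 (83647844 to 83649355) on the minus strand and Ccl4 (83662584 to 83664683) on the plus strand. Ccl22 lies alone on chromosome 8 from 94745590 to 94751699 on the plus strand. All are protein-coding. The coding sequence around the adjacent cysteine codons, in capitals, is shown 5′ to 3′ from the GENCODE transcripts, because this is the motif that names the family.
Ccl2: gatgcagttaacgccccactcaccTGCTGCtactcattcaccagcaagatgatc
Ccl7: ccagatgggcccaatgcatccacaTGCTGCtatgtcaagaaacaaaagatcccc
Ccl12: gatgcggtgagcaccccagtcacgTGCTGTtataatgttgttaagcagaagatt
Ccl22: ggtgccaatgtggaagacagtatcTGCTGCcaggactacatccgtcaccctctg
Ccl3: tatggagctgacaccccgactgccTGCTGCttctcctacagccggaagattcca
Ccl4: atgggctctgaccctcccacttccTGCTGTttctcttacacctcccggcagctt
Ccl9: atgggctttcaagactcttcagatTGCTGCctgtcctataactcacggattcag
Ccl6: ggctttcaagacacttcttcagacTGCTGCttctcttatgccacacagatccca

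Each coding sequence holds such a pair of adjacent cysteine codons, and the first in each is the one shown. Aligned coding sequences were 70.6% identical between Ccl6 and Ccl9, 70.0% between Ccl3 and Ccl4, 69.3% between Ccl2 and Ccl12 and 68.4% between Ccl2 and Ccl7. The longest run of bases shared by the transcripts of these pairs was 25, 9, 17 and 23, so a longer read can separate them. Identity leaves out gapped positions, and Ccl12 and Ccl22, on different chromosomes, had 68.9% over 235 aligned bases. The lowest identity of any member pair was 58.1%, between Ccl7 and Ccl22. RefSeq also has a Ccl4 model whose span from start to end, introns included, overlaps that of Ccl3 by 755 bases on the opposite strand. The overlap of exons alone was not computed. Whether the counting used strand is not given in the sources used here. Without strand, reads in any exon bases shared there cannot be told apart between Ccl3 and Ccl4.

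**Figure D1:**
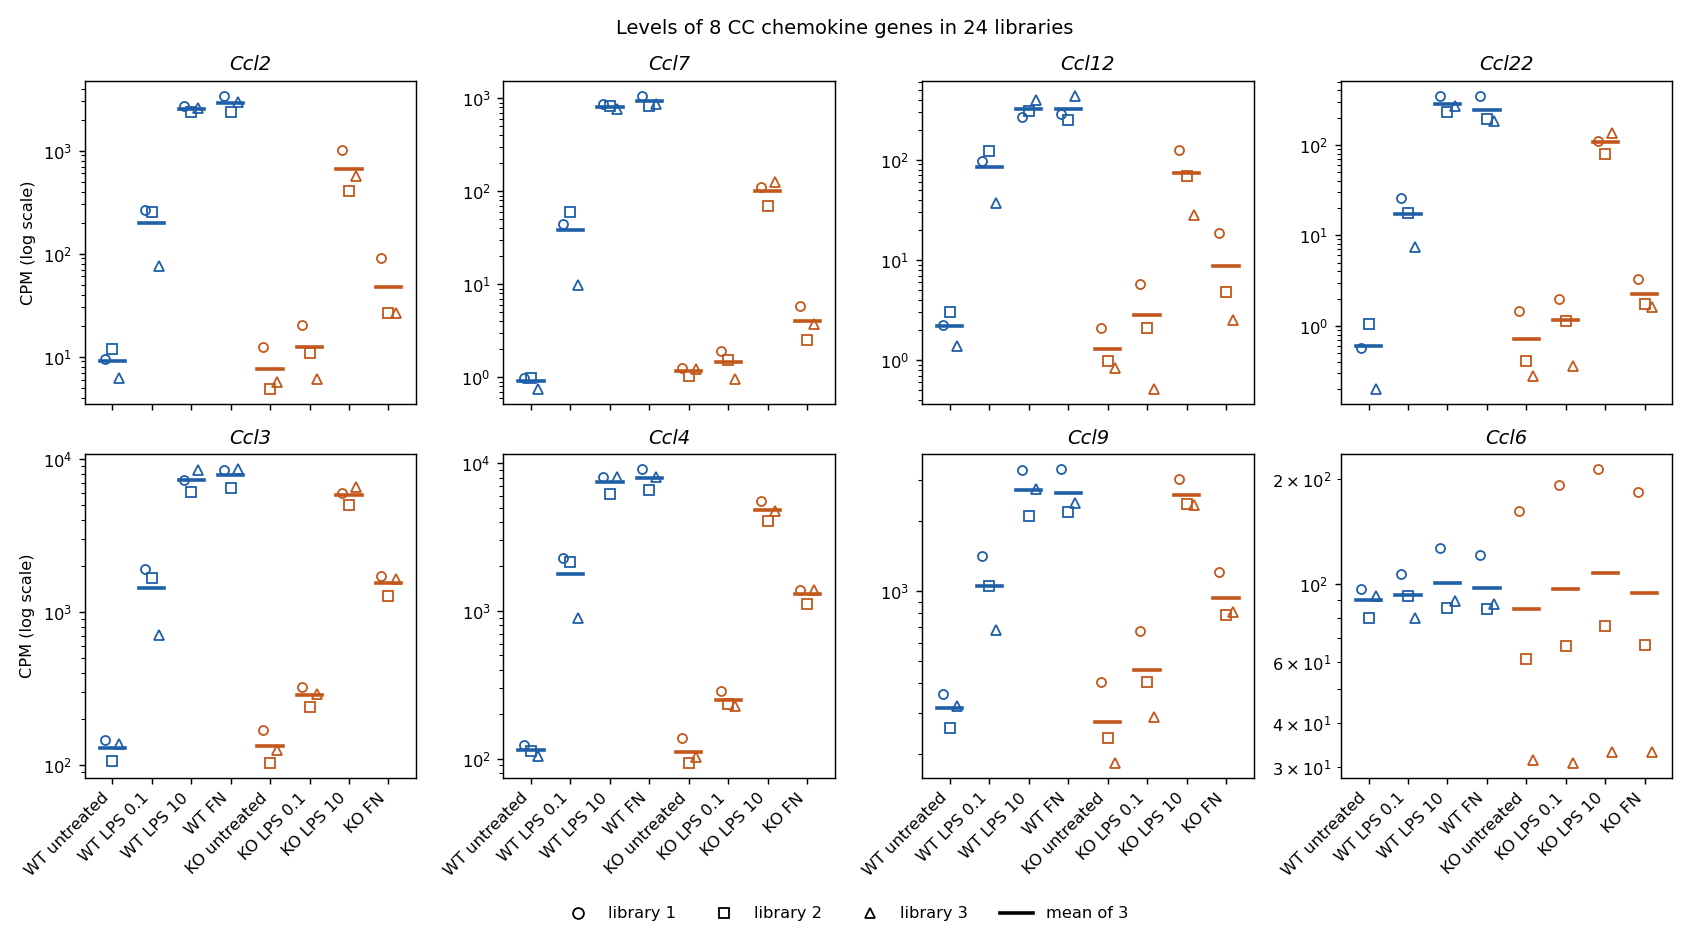
CPM of the 8 chemokine genes on log axes, 1 point per library (circle, square and triangle for libraries 1, 2 and 3), with a line at the mean of the 3; WT is blue and KO orange, and the LPS doses are in ng/ml. For 7 genes every library at LPS 10 ng/ml lies above the untreated ones of its genotype, while Ccl6 lies between 30.8 and 214 CPM in all 24 libraries. The share of all genes separated in this way was not computed.

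Before any stimulus the members covered a wide range of levels and did not differ detectably between genotypes. Ccl9 was at 257 to 360 CPM in WT and 182 to 406 CPM in KO libraries, and Ccl3 at 106 to 145 and 103 to 169 CPM. Ccl4 was at 105 to 124 and 93.5 to 138 CPM, and Ccl6 at 80.2 to 97.0 and 31.4 to 162 CPM. The monocyte chemoattractant proteins were low: Ccl2 was at 6.22 to 11.7 CPM in WT and 4.80 to 12.4 CPM in KO, Ccl12 at 1.38 to 3.03 and 0.832 to 2.07 CPM, and Ccl7 at 0.740 to 0.994 and 1.03 to 1.25 CPM. The Ccl7 libraries, at only 15 to 28 counts each, did not overlap between genotypes, with a log2 difference, KO minus WT, of 0.35 ± 0.53. The share of all genes without such overlap was not computed, so the separation is a description. None of the 8 was called by edgeR (0.00752% of tested genes were, the 1 gene being Cd14), none had an unadjusted p under 0.05, against 130 of all genes, and none was called by DESeq2 or limma. The 95% confidence intervals were narrowest for Ccl4 (-0.58 to 0.51), Ccl3 (-0.55 to 0.63) and Ccl9 (-0.89 to 0.51) and widest for Ccl12 (-2.48 to 0.94).

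LPS raised 7 of the 8 members in WT microglia at both doses, with larger fold changes for the chemoattractant proteins and Ccl22 than for Ccl3, Ccl4 and Ccl9. Ccl2, the main CCR2 ligand, was at 9.40, 11.7 and 6.22 CPM in the 3 untreated WT libraries, 265, 251 and 76.0 CPM at LPS 0.1 ng/ml and 2705, 2360.5 and 2595 CPM at LPS 10 ng/ml. The 3 groups were separate for Ccl2, and library 3 of the lower dose was the farthest from its partners. Its log2 fold change was 4.43 ± 0.63 at the lower dose (adjusted p = 5.65e-05) and 8.13 ± 0.74 at the higher (4.17e-08).

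Ccl7, the second chemoattractant protein next to Ccl2 on the chromosome, was at 0.987, 0.994 and 0.740 CPM untreated, 44.2, 60.0 and 9.77 CPM at LPS 0.1 ng/ml and 857, 826 and 759 CPM at LPS 10 ng/ml. No library of one group reached into the next. Its log2 fold change at LPS 10 ng/ml, 9.80 ± 0.62 (adjusted p = 5.9e-10), was the largest of the 8 members in value and stands for an 891-fold rise. Ccl12, the mouse-specific chemoattractant protein, rose by 5.26 ± 0.86 and 7.18 ± 0.93 at the lower and the higher dose: its WT libraries were at 2.23, 3.03 and 1.38 CPM untreated, 96.5, 122 and 37.5 CPM at the lower dose and 267, 309 and 393 CPM at the higher. Ccl22 rose from 0.572, 1.04 and 0.197 CPM to 26.0, 17.9 and 7.50 CPM and to 344, 232 and 269.7 CPM (4.80 ± 0.68 and 8.84 ± 0.79). The untreated WT libraries held 4 to 22 counts of Ccl22 each.

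The macrophage inflammatory proteins started higher and rose less in fold. Ccl3 went from 145, 106 and 136 CPM to 1909, 1670.3 and 703 CPM at LPS 0.1 ng/ml and 7257, 6029 and 8517 CPM at LPS 10 ng/ml (log2 fold changes of 3.47 ± 0.31 and 5.82 ± 0.35). Ccl4 went from 124, 112 and 105 CPM to 2298, 2139 and 902 CPM and then 8040.2, 6189.6 and 8111 CPM (3.97 ± 0.29 and 6.03 ± 0.32). Library 3 of the lower dose was again below its partners for both. Ccl9, the CCR1 ligand with the highest untreated CPM, rose by 1.74 ± 0.34 and 3.12 ± 0.36, from 360, 257 and 320.5 CPM to 1412, 1045 and 681 CPM and to 3312, 2101 and 2738 CPM. Ccl6, its neighbour, was at 79.9 to 107 CPM at the lower dose and 85.6 to 127 CPM at the higher, with a log2 fold change of 0.16 ± 0.71 at LPS 10 ng/ml (95% interval -1.32 to 1.65) and libraries that overlapped the untreated ones.

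Set against all tested genes, 7 of 8 members were called higher in WT cells at LPS 0.1 ng/ml where 9.94% of genes were, and 7 of 8 at LPS 10 ng/ml where 23.3% were. Their median log2 fold changes were 4.20 and 6.61, and those of all tested genes -0.01 at both doses. Of all genes called at the lower and the higher dose, 63.7% and 47.1% were higher. Scaled by library totals these shares were 36.7% and 16.3%, and 7 members were still called higher at each dose. From the lower to the higher dose 6 of 8 were called higher in WT cells, against 14.8% of genes. Ccl7 (4.42 ± 0.48), Ccl22 (4.04 ± 0.61) and Ccl2 (3.69 ± 0.60) had the largest steps. Ccl12 had one of 1.92 ± 0.73 that missed the threshold (adjusted p = 0.0505) and passed it with the replicate number as a block (0.00524). The step of Ccl9 (1.38 ± 0.34, adjusted p = 0.00432) missed it without the 3 libraries rich in Rn45s (0.0726). In WT LPS 0.1 ng/ml, library 3 was the lowest of the 3 for 8 of 8 members. It is also one of the libraries rich in Rn45s, whose part in the lower values was not tested.

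In KO microglia, LPS 0.1 ng/ml raised the macrophage inflammatory protein gene Ccl4 alone among the 8, where 0.722% of genes were called higher. Ccl4 went from 138, 93.5 and 102 CPM untreated to 285, 236 and 229 CPM, with no overlap (1.17 ± 0.26, adjusted p = 0.0439). That call was lost in 5 of 6 fits that left out 1 library, where adjusted p reached 0.294, and in a fit of the 2 groups alone (0.0978). Ccl3 went from 169, 103 and 125 CPM to 325, 240.0 and 292 CPM, also without overlap (1.11 ± 0.29, adjusted p = 0.102, and 0.0238 with the replicate block). The other 6 overlapped their untreated libraries. The share of all genes without overlap was not computed for this comparison, so the separation is a description. Ccl2 was at 20.4, 10.9 and 6.01 CPM against 12.4, 4.80 and 5.71 CPM untreated (0.71 ± 0.56), and Ccl7 at 1.92, 1.53 and 0.967 CPM against 1.25, 1.03 and 1.22 CPM (0.35 ± 0.50). The median over the 8 members was 0.73, and over all tested genes 0.00036.

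At LPS 10 ng/ml KO cells raised 7 of 8 members, where 21.2% of genes were called higher, with a median log2 fold change of 5.65 against -0.01 over all genes. Ccl3 reached 5964, 5021 and 6504 CPM (5.46 ± 0.34) and Ccl4 5539, 4053 and 4772 CPM (5.43 ± 0.31). Ccl9 reached 3023, 2358 and 2349 CPM (3.23 ± 0.36). These 3 genes thus lay at 80.2%, 64.3% and 94.9% of the mean WT level at that dose.

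Among the chemoattractant proteins, Ccl2 reached 1010.3, 405 and 562 CPM in KO cells at that dose (6.43 ± 0.69), and Ccl12 126, 69.8 and 28.3 CPM (5.84 ± 0.89). Ccl7 reached 112, 69.2 and 125 CPM (6.45 ± 0.54). They lay at 25.8%, 23.1% and 12.5% of the mean WT level. Ccl22 reached 112, 79.2 and 135 CPM (7.25 ± 0.74), or 38.6% of it. From the lower to the higher dose, 7 of 8 members were called higher in KO cells, against 18.3% of genes.

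**Figure D2:**
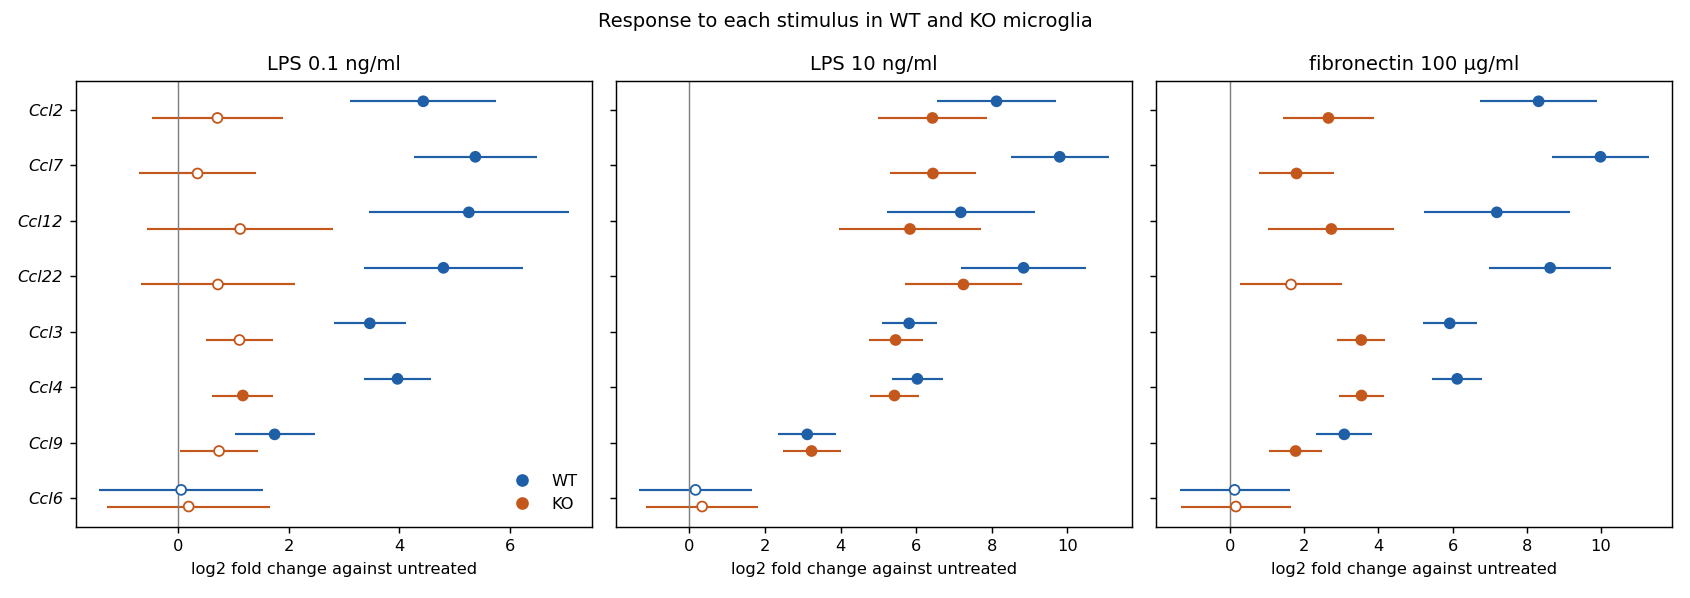
Log2 fold change of each gene against untreated cells of the same genotype, with 95% confidence intervals, for WT (blue) and KO (orange) under each stimulus; filled points passed the adjusted threshold and open points did not. In WT cells 7 of 8 genes passed under every stimulus, and in KO cells 1, 7 and 6 did.

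Fibronectin gave WT cells chemokine levels close to those of the higher LPS dose. With FN, Ccl2 was at 3404, 2389.9 and 2941 CPM in WT libraries, Ccl7 at 1064, 835 and 877 CPM and Ccl12 at 287, 249.6 and 438 CPM. Ccl3 was at 8502, 6404 and 8563 CPM, Ccl4 at 9119, 6640.0 and 8012 CPM and Ccl9 at 3337, 2192 and 2387 CPM. Of the 8, 7 were called higher than untreated, where 23.7% of genes were, with a median log2 fold change of 6.66. Ccl7 had the largest value, 9.98 ± 0.62, and Ccl6 the smallest, 0.12 ± 0.71.

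FN and LPS 10 ng/ml overlapped in WT libraries for all 8 members, and edgeR called none between them (0% of tested genes). How many of all genes overlapped was not computed. No member had an unadjusted p under 0.05, against 105 of all genes, and DESeq2 and limma called none. The differences, FN minus LPS, ran from -0.22 ± 0.54 for Ccl22 (95% interval -1.35 to 0.92) to 0.19 ± 0.54 for Ccl2 (-0.95 to 1.33). The narrowest intervals were those of Ccl4 (-0.45 to 0.63) and Ccl3 (-0.48 to 0.70).

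In KO cells the same fibronectin raised Ccl3 and Ccl4 the most in fold, and the chemoattractant proteins stayed under 100 CPM. Ccl3 reached 1708, 1274 and 1636 CPM (3.54 ± 0.31) and Ccl4 1375, 1121 and 1396 CPM (3.54 ± 0.29), each far from the untreated libraries. Ccl9 reached 1200.4, 785 and 811 CPM (1.77 ± 0.34). Ccl2 reached only 90.8, 26.6 and 26.4 CPM (2.65 ± 0.59) and Ccl7 5.86, 2.52 and 3.78 CPM (1.79 ± 0.48), with library 1 above the other 2 for both. Without library 1 of KO FN the Ccl2 change was 1.8 (adjusted p = 0.0361).

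Of the 8 members, 6 were called higher in KO cells with FN, against 9.23% of genes, with a median of 2.22. The calls of Ccl12 and Ccl7 were the least firm. Ccl12, at 18.6, 4.84 and 2.52 CPM, had a log2 fold change of 2.73 ± 0.81 (adjusted p = 0.0258), which was 1.51 without library 1 of KO FN (0.244), and its call was also lost without library 2 or 3 of untreated KO. That of Ccl7 (adjusted p = 0.0148) was lost without library 1 of KO FN (0.0899) or library 2 of untreated KO (0.0655). With limma their log2 fold changes were 1.72 and 1.17, and both missed the threshold (adjusted p = 0.0647 and 0.0612). In a fit of the 2 groups alone the calls of Ccl2 (0.0559) and Ccl12 (0.0955) were lost. Ccl22, at 3.30, 1.75 and 1.62 CPM, missed the threshold (1.64 ± 0.65, adjusted p = 0.0992) and passed it with the replicate block (0.0308), with DESeq2 (0.0339) and without library 1 of untreated KO, where its value was 2.65 (0.0253). Against LPS 10 ng/ml in KO cells, FN left 7 of 8 members lower, where 9.43% of genes were called lower, from -1.47 ± 0.34 for Ccl9 to -5.61 ± 0.67 for Ccl22. The call of Ccl12 in that comparison was lost without library 2 of KO FN (adjusted p = 0.0527) and in a fit of the 2 groups alone (0.0939).

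Among the stimulated cultures, the fewest members were called between genotypes at LPS 10 ng/ml. At LPS 0.1 ng/ml, 7 of 8 members were lower in KO cells, where 6.33% of genes were called lower, with log2 differences, KO minus WT, from -4.91 ± 0.84 for Ccl12 and -4.67 ± 0.50 for Ccl7 to -1.20 ± 0.34 for Ccl9. The call of Ccl9 (adjusted p = 0.032) was lost in 4 of 6 fits that left out 1 library and without the libraries rich in Rn45s (0.0512). In a fit of the 2 groups alone Ccl9 (0.199), Ccl12 (0.0634) and Ccl22 (0.0602) missed the threshold and 4 members were called.

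At LPS 10 ng/ml 2 of 8 were called lower, against 7.85% of genes. Ccl7 differed by -3.0 ± 0.44 (adjusted p = 0.000137) and Ccl2 by -1.95 ± 0.56 (0.0227). The Ccl2 call was lost without library 1 of WT LPS 10 ng/ml (0.0538) or library 2 (0.0996) or 3 (0.0982) of KO LPS 10 ng/ml, although the groups did not overlap. With the replicate number as a block 5 members were called, the others being Ccl12 (-2.42, adjusted p = 0.00421), Ccl22 (-1.32, 0.00642) and Ccl4 (-0.64, 0.0381). The share of all genes called in the blocked fit is not given here. Over all comparisons the block added 8 calls of members and removed 0. Ccl3 (-0.32 ± 0.28, 95% interval -0.91 to 0.27) and Ccl9 (-0.08 ± 0.33, -0.78 to 0.63) overlapped between genotypes there. With FN, 7 of 8 members were lower in KO cells, against 17.6% of genes, and Ccl7 had the largest difference in value (-7.84 ± 0.56, a 229-fold lower level), ahead of Ccl22 (-6.77 ± 0.70) and Ccl2 (-5.92 ± 0.67).

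Whether a response differed between genotypes was tested as an interaction, the KO response to a stimulus (log2) minus the WT response. The comparisons of the 3 stimuli share their untreated libraries. With FN it was lower than 0 and called for 6 of 8 members, against 11.3% of genes. Ccl7 had the largest shortfall (-8.19 ± 0.73, adjusted p = 7.06e-07), followed in value by Ccl22 (-6.98 ± 0.95), Ccl2 (-5.67 ± 0.83) and Ccl12 (-4.46 ± 1.12). Ccl4 (-2.58 ± 0.37) and Ccl3 (-2.38 ± 0.40) lost less. Ccl9 had -1.31 ± 0.48 (adjusted p = 0.0548, and 0.00152 with the replicate block).

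At LPS 0.1 ng/ml the interaction was called for 5 of 8 members, against 2.11% of genes: Ccl7 (-5.03 ± 0.71), Ccl22 (-4.08 ± 0.94), Ccl2 (-3.73 ± 0.81), Ccl4 (-2.80 ± 0.37) and Ccl3 (-2.36 ± 0.40). Ccl12 had -4.14 ± 1.12 and missed the threshold (adjusted p = 0.0644), which it passed with the replicate block (0.0304). The calls of Ccl2 and Ccl22 were lost in 3 and 6 of the 12 fits that left out 1 library. Those without library 3 of untreated WT, library 1 of WT LPS 0.1 ng/ml or library 1 of untreated KO left 3 members called, as did a fit of the 4 groups alone. At LPS 10 ng/ml only Ccl7 was called (-3.35 ± 0.68, adjusted p = 0.00647), against 3.32% of genes. The intervals of Ccl3 (-1.19 to 0.48) and Ccl9 (-0.88 to 1.11) excluded a shortfall of the size seen for Ccl7.

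**Figure D3:**
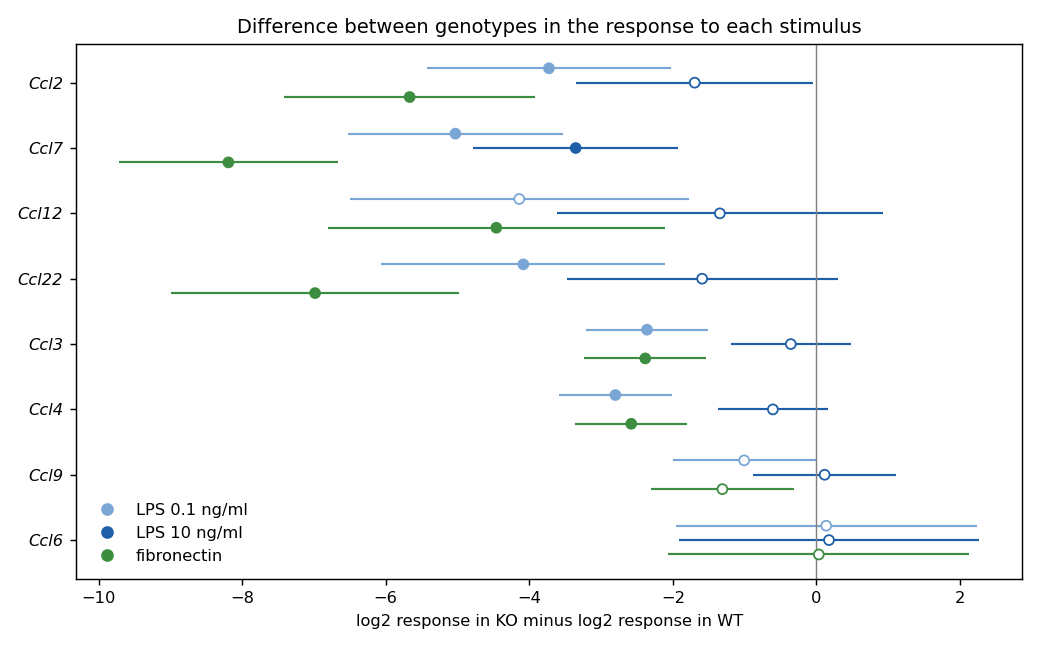
Difference between genotypes in each response (log2 fold change in KO minus that in WT) with its 95% confidence interval, for LPS 0.1 ng/ml (light blue), LPS 10 ng/ml (dark blue) and FN (green); filled points passed the adjusted threshold. Ccl7 lies farthest to the left under all 3 stimuli, from -3.35 to -8.19, and Ccl6 lies at 0.03 to 0.18.

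The make-up of the chemokine RNA was compared between genes as CPM per kilobase of the principal transcript. Summed over the 8 members this level was 471 to 582 in untreated WT libraries, 22622 to 29374 at the higher LPS dose and 23744 to 32318 with FN. In KO cells it was 406 to 699 untreated, 14284 to 18999 at the higher LPS dose and 3714 to 4996 with FN. By raw counts, the 8 genes took 0.0716% to 0.0869% of a library in untreated WT cells, 1.40% to 1.65% at LPS 10 ng/ml, 1.47% to 1.73% with FN and 0.401% to 0.490% in KO cells with FN.

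Per kilobase, Ccl3 and Ccl4 were the leading pair in the mean of every group. At LPS 10 ng/ml in WT cells Ccl4 took 41.5% to 43.7% of the sum and Ccl3 34.0% to 37.9%. The mean share of Ccl2 went from 2.18% untreated to 11.9% at LPS 10 ng/ml and 12.5% with FN in WT cells. In KO cells it was 4.66% at LPS 10 ng/ml and 1.27% with FN, against an untreated mean of 1.78%. The KO libraries with FN (0.708% to 2.24%) overlapped the untreated ones (1.45% to 2.18%). Ccl9 and Ccl6, at 19.8% and 11.9% of the untreated WT sum, took 3.38% and 0.26% of the sum at LPS 10 ng/ml, where their mean levels were 2717 and 101 CPM.

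**Figure D4:**
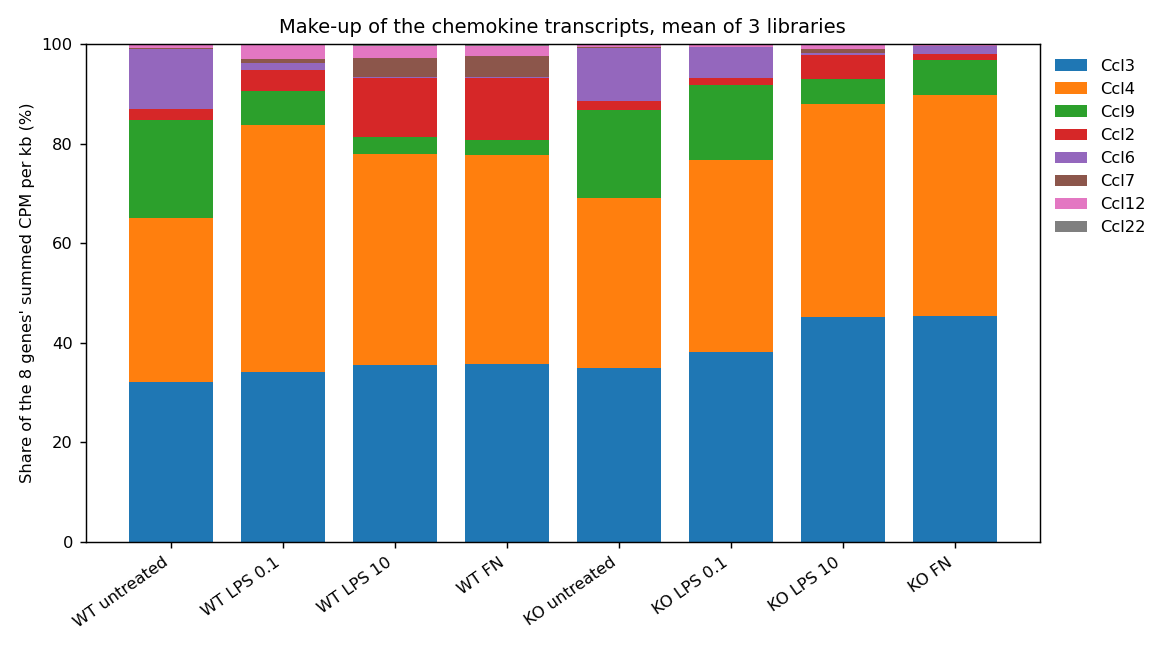
Mean share of each gene in the summed CPM per kilobase of the 8 chemokine genes, for each group (3 libraries each). Ccl3 and Ccl4 are the tallest blocks of every bar, and the red block of Ccl2 is tallest in WT cells, at 11.9% with LPS 10 ng/ml and 12.5% with FN.

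Ccl6 was called in none of the 17 comparisons, and its libraries differed by number. In KO cells it was highest in library 1 and lowest in library 3 under 4 of 4 treatments: 162, 61.3 and 31.4 CPM untreated, 193, 66.4 and 30.8 CPM at LPS 0.1 ng/ml, 214, 75.8 and 33.0 CPM at LPS 10 ng/ml and 184, 67.0 and 33.0 CPM with FN. The ratio of library 1 to library 3 was 5.16 to 6.48, while the 12 WT libraries stayed between 79.9 and 127 CPM. This spread enters the standard error of every Ccl6 comparison, WT included, since the groups share 1 dispersion estimate. With the replicate number nested in the genotype as a block, its KO change at LPS 10 ng/ml was called (0.27, adjusted p = 0.01). Ccl12 kept the same order of the 3 KO libraries in 4 of 4 treatments, with ratios of 2.49 to 11.3. Other values moved with these numbers. Ccnb1, a mitotic cyclin, was at 27.7, 4.80 and 0.610 CPM in untreated KO libraries 1, 2 and 3. Neuronal markers summed to 73.4 to 97.9 CPM in library 2 of the KO groups and to 3.78 to 7.67 CPM in libraries 1 and 3, and Ccr2 was highest in library 1 of each group. Their part in the Ccl6 values was not tested.

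**Figure D5:**
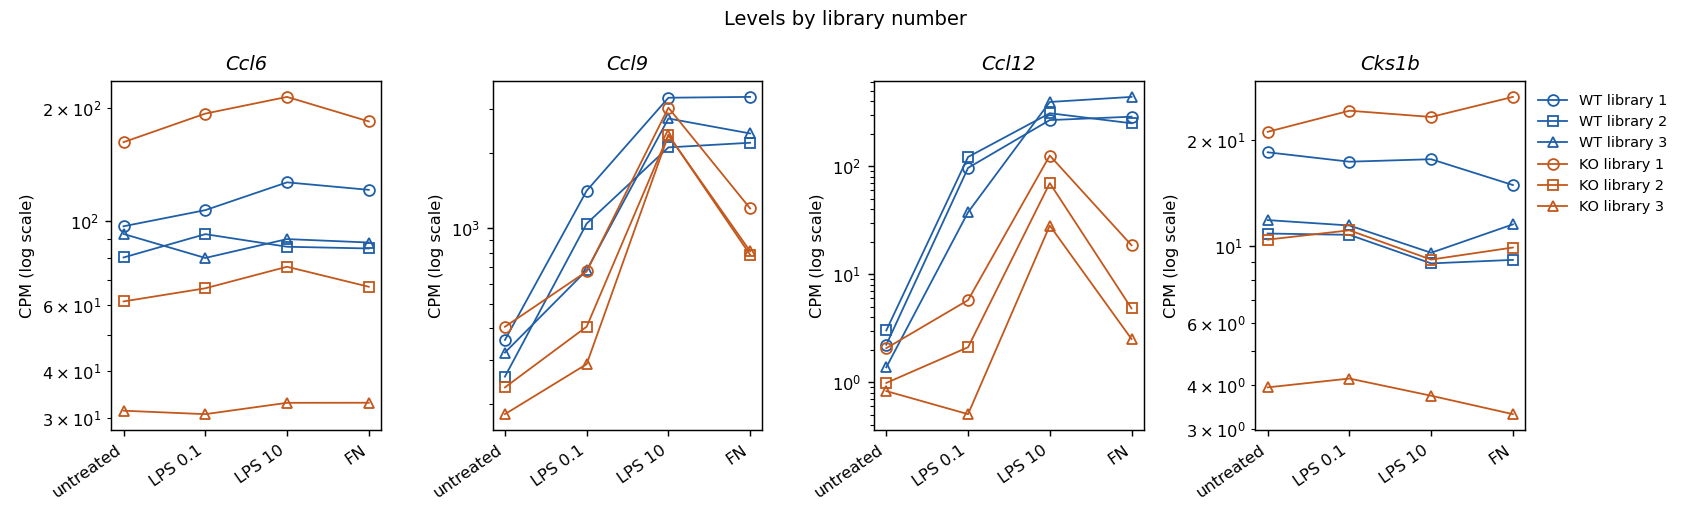
CPM on log axes of Ccl6, Ccl9, Ccl12 and Cks1b by treatment, with a line for each library number in WT (blue) and KO (orange). The 3 KO lines of Ccl6 and of Cks1b run apart and nearly flat, at 162 to 214 CPM for Ccl6 in library 1 and 30.8 to 33.0 CPM in library 3, while Ccl9 and Ccl12 are higher at LPS 10 ng/ml than untreated in every line.

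Ccl6 and Ccl9 are neighbours with the highest coding identity of any member pair (70.6%) and different responses. The 250 bases before each RefSeq start (GRCm38.p6) are therefore shown, both from chromosome 11 on the minus strand. Capitals mark motif matches.
Ccl9, chr11:83578637-83578886: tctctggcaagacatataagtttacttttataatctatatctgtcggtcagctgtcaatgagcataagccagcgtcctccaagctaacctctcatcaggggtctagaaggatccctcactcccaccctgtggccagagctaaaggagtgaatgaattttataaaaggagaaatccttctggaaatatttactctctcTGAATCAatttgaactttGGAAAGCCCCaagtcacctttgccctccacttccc
Ccl6, chr11:83593088-83593337: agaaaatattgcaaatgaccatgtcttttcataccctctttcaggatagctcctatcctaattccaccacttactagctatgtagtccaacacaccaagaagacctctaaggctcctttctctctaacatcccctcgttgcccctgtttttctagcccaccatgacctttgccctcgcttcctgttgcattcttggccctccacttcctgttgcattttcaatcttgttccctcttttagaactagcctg

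Searched on both strands, the Ccl9 window held 1 match to the AP-1 motif TGANTCA, beginning 53 bases before the start, and 1 to the NF-kB consensus, on the opposite strand, beginning 35 bases before it. The Ccl6 window held neither, nor the interferon response core, GAAA and GAAA with any 2 bases between. Of 32851 promoter windows of the same length, 7.25% held the NF-kB consensus, 6.75% the AP-1 motif and 2.98% the interferon core, and no 2 of these motifs overlapped in the Ccl9 window. The windows of Ccl3, Ccl12 and Ccl22 held none of the 3. The longest run shared by the Ccl6 and Ccl9 windows was 13 bases. A match is a description of letters, and windows for Ccl2, Ccl4 and Ccl7 were not used here.

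The genes with the most similar pattern to each member across the 24 libraries were sought by Pearson's r of log2 CPM. The search covered 10162 genes of at least 5 CPM in their highest group. The 24 points share groups, library numbers and depth, so r is a description. Ccl3 and Ccl4 ran closest to Nfkb1, an NF-kB subunit (r = 0.995 with Ccl3), and Dusp2, a nuclear phosphatase of MAP kinases (0.996 with Ccl4), and also to Ripk2 and, for Ccl4, Pim1. Ccl2 ran closest to Triobp (0.994), Peli1 and Csrnp1, and Ccl7 to Csrnp1 (0.994), Il27 and Sav1. Ccl22 ran closest to Cdkn1a (0.988), the p21 cell cycle inhibitor, then Il27 and Cish. Ccl12 ran closest to Gbp3 (0.984), an interferon-inducible GTPase, then Nfxl1 and Znfx1, and Ccl9 to Rab11fip1 (0.984), Acot10 and Nck1. Ccl6 ran closest to Cks1b (0.959), Tyms (0.958) and Ccnb1 (0.948), which serve cell division and DNA synthesis. Between members, r was 0.996 for Ccl3 with Ccl4 and 0.990 for Ccl2 with Ccl7, and 0.172 to 0.394 for Ccl6 with any of the others.

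The other CC ligands followed in part. Of 15 listed, 6 passed the filter, Ccl8 and Ccl17 only through stimulated libraries, so a count over those that passed is partly set by the filter. In WT cells 4 were called higher under each of LPS 10 ng/ml (23.3% of all genes) and FN (23.7%), Ccl8 and Ccl17 among them. Ccl5, a ligand of CCR1 and CCR3, rose from 3.75 to 7.81 CPM untreated to 1786 to 2375 CPM at LPS 10 ng/ml (8.53 ± 0.74), and reached 22.2 to 85.4 CPM in KO cells with FN. Ccl8 (4.35 ± 0.97), Ccl24 (2.13 ± 0.56) and Ccl17 rose from levels under 1 CPM, Ccl17 to 1.95 to 8.01 CPM. Ccl25 (-0.05 ± 0.36) and Ccl27a (-1.90 ± 1.09) were not called. In KO cells with FN Ccl5 was called higher (9.23% of all genes were), and the FN interaction was called and negative for 4 genes (11.3%).

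Of the CC chemokine receptors, 7 of 18 listed names were tested, Ccr7 and Ccr9 only through stimulated libraries. In WT cells 4 were called higher at LPS 10 ng/ml, where 23.3% of all genes were, Ccr7 and Ccr9 among them. Ccrl2, an atypical receptor that binds chemerin without signalling, rose from 9.77 to 11.6 CPM to 955 to 1204.5 CPM (6.68 ± 0.39). Ccr9 (2.60 ± 0.52) and Ccr3 (1.90 ± 0.64) rose at low levels, and Ccr7 was at 0 CPM in all 3 untreated libraries and at 0.524 to 1.19 CPM. Ccr1 and Ccr2, receptors of several members, were not called: Ccr1, at 5.97 to 22.6 CPM untreated, had -0.45 ± 0.92 and Ccr2, at 1.23 to 8.0 CPM, -1.59 ± 1.34. In KO cells 3 of the 7 were called higher at LPS 10 ng/ml (21.2% of all genes) and 2 after FN (9.23%).

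Of 26 genes of TLR4 signalling and of the transcription and decay of chemokine RNA, 21 were called higher and 1 lower in WT cells at LPS 10 ng/ml, against 23.3% and 26.1% of all genes. The leading ones were Irf1 (6.06 ± 0.33) and Irf7 (5.48 ± 0.73), interferon regulatory factors, Tnfaip3 (5.86 ± 0.37), an inhibitor of NF-kB signalling, and Nfkbiz (4.62 ± 0.30). In KO cells with FN 16 were called higher and 1 lower, against 9.23% and 7.17%. Nfkbiz (3.96 ± 0.29), Nfkbia (3.56 ± 0.25), Zc3h12a (2.80 ± 0.28) and Tnfaip3 (2.78 ± 0.32), feedback regulators of NF-kB or of cytokine RNA, led. Atf3 (0.56 ± 0.23) was not called. The FN interaction was called and negative for 14 of 26, against 11.3% of all genes, among them Irf7 (-5.19 ± 0.91), Irf1 (-4.14 ± 0.39) and Tnfaip3 (-3.13 ± 0.44). Nfkbiz (-0.77 ± 0.37) and Relb (-0.18 ± 0.19) were not called. The median log2 fold change of this list was 2.69 for WT LPS 10 ng/ml and 1.12 for KO FN.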

How the data were processed

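RNA was sequenced from 24 microglia libraries with a TruSeq kit on a HiSeq2000, per the labels' protocols. The deposited count table holds whole read counts of 18919 gene symbols. The authors' tools were Bowtie2 2.1.0, HTSeq 0.5.4, DESeq, SAMtools 0.1.19, CASAVA 1.8.2 and FastQC 0.10.0, with the mm10 build, per the submitters' processing notes, while the annotation and strand setting are not given in the sources used here. The deposited normalized signal covers 12889 genes, all 8 members included, and equals the counts over 1 factor per library to within 0.144, so the counts were tested.

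Counts were analysed with edgeR 4.0.16 in R 4.3.3: filterByExpr (minimum count 10, minimum total 15), TMM scaling and a robust quasi-likelihood fit of 8 groups (16 residual degrees of freedom, prior count 0.125), with 17 contrasts adjusted over 13294 genes each. Standard errors are the absolute log2 fold change over the square root of F. The steps were tested on simulated counts for WT LPS 10 ng/ml against untreated alone, with changes balanced up and down. The 8-group fit and the interactions were not simulated. Levels between genes use the principal GENCODE transcript length.

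Members, gene lists and the naming rule were chosen with earlier results of these data known. The rule names the 8 members always, Cd14, up to 4 called and 2 uncalled genes of a list, and the 3 genes most like each member, and Ccr2 is added as a receptor of the members. Lists covered other CC ligands, CC receptors, receptor signalling, other monocyte attractants, chemokine processing, TLR4 signalling and cell type markers.

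Within a genotype, same-numbered libraries deviated together from their group means (r = 0.670 to 0.969, 36 pairs). Pairs of unlike number there had r of -0.803 to 0.444 (72 pairs). Between genotypes at the same treatment r was 0.276 to 0.895 (12 pairs), against -0.802 to 0.760 for unlike numbers (24 pairs). Only number 1 (0.846 to 0.895) lay above that range, and numbers 2 and 3 (0.276 to 0.535) lay within it. The pairing comes from the data, since the series calls the preparations independent, and the fit without the block takes the 24 libraries as independent. Alternatives were the replicate number as a block, also nested in genotype, DESeq2 1.42.0, limma 3.58.1 on log2 of the deposited signal plus 1, other scaling and filters, the compared groups alone, and leaving out libraries. Promoter windows matched 5 of 8 members in RefSeq. Motifs were searched with Python 3.11.15 and coding sequences aligned with Biopython 1.88. Some genes that the naming rule picks are not reported here.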

Additional observations from a re-analysis of the deposited data

Results flagged for a closer look

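The change with a stimulus differed between genotypes by the test of the difference itself for these members, given on the log2 scale as the KO response minus the WT response. With LPS 0.1 ng/ml the differences were -3.73 for Ccl2, -2.36 for Ccl3, -2.80 for Ccl4, -5.03 for Ccl7 and -4.08 for Ccl22. With LPS 10 ng/ml Ccl7 had -3.35. With FN they were -5.67 for Ccl2, -2.38 for Ccl3, -2.58 for Ccl4, -8.19 for Ccl7, -4.46 for Ccl12 and -6.98 for Ccl22. Groups of 3 libraries are too small for the check on single outlying libraries.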

How the results depend on the processing

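Directions of called values held in all alternatives run, and most calls did too. Counts of members from these alternatives, here and above, are given without the share of all genes called in the same fit. The count of members called higher in KO cells at LPS 0.1 ng/ml was 1. It was 2 with library totals, 0 with no filter, 2 with the replicate block, 3 with the nested replicate block, 0 in a fit of the compared groups alone, 2 with DESeq2, 2 without the libraries rich in Rn45s and 0 to 1 when a library was left out. At LPS 0.1 ng/ml KO against WT gave 7 and the interaction 5, and fits of the compared groups alone gave 4 and 3; leaving out a library gave 3 to 6 for the interaction. KO against WT at LPS 10 ng/ml gave 2, with 5 under the replicate block, 4 under limma and 1 to 3 when a library was left out. The interaction at LPS 10 ng/ml gave 1, and 2 with the nested replicate block, where Ccl2 joined (adjusted p = 0.0289). The replicate block changed no call other than those given with the results, and the nested one also added Ccl9 at LPS 0.1 ng/ml in KO cells (0.0235) and in the interaction (0.0152). A nested block cannot give KO against WT. Scaling by library totals moved the median log2 change of all genes from -0.01 to -0.80 for WT LPS 10 ng/ml against untreated and from 0.02 to 0.68 for KO against WT with FN. Ccl9 then had -0.84 with FN in KO against WT and 0.83 for the WT dose step, both still called. The share of all calls that were higher moved from 49.5% to 21.1% for KO LPS 10 ng/ml, 47.3% to 16.8% for WT FN, 56.3% to 43.2% for KO FN, 31.9% to 52.1%, 50.6% to 84.2% and 54.5% to 86% for KO against WT at LPS 0.1 ng/ml, LPS 10 ng/ml and FN, 37.2% to 77.8% and 51% to 86.1% for the interactions at LPS 10 ng/ml and FN, 45.9% to 12.1% and 49.8% to 20.6% for the WT and KO dose steps and 44.5% to 82.3% for KO FN against LPS 10 ng/ml. The causes were not tested. Leaving out 1 library moved 27 values, called with or without it, by over 1.5 times in fold, all of Ccl2, Ccl12 or Ccl22, through library 2 of untreated WT or library 1 of a KO group. Examples are Ccl12 for KO against WT at LPS 0.1 ng/ml (-4.91, and -6.01 without library 1 of KO LPS 0.1 ng/ml) and Ccl22 in KO cells at LPS 10 ng/ml (7.25, and 8.26 without library 1 of untreated KO).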

Other observations

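Other attractants and macrophage growth factors were measured beside the chemokines. Of 7 tested, 4 were called higher and 1 lower in WT cells at LPS 10 ng/ml, against 23.3% and 26.1% of all genes. At that dose 4 were called higher in KO cells (21.2% of all genes), as were 4 with FN (9.23%). Csf2 passed the filter on low counts only through stimulated libraries. Csf1, a growth factor that keeps microglia alive, rose from 6.23 to 8.68 CPM in untreated WT libraries to 411 to 510.4 CPM at LPS 10 ng/ml (6.02 ± 0.33). It rose by 3.74 ± 0.30 in KO cells, and with FN its genotype difference in response was -4.67 ± 0.40. Cx3cl1, the ligand of the microglial receptor CX3CR1, rose by 6.00 ± 0.73 in WT and 5.68 ± 0.71 in KO cells at LPS 10 ng/ml. Csf2, which encodes GM-CSF, was at 3.22 to 6.11 CPM in WT and 9.48 to 51.1 CPM in KO libraries at that dose, from 0.052 CPM at most untreated. Saa3 rose by 3.20 ± 1.19 in WT cells, while Plau (-0.85 ± 0.51) and Mif (0.37 ± 1.0) were not called.

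Among 13 tested genes that cut chemokines or hold them at the cell surface, 5 were called higher in WT cells at LPS 10 ng/ml, where 23.3% of all genes were. Mmp13, a collagenase, rose by 8.37 ± 0.54 to 4128 to 6632 CPM, and Sdc4, a heparan sulfate proteoglycan, by 7.02 ± 0.54. Mmp14 (4.19 ± 0.66) and Ext1, an enzyme of heparan sulfate synthesis (3.25 ± 0.27), rose too, and Sdc3 (0.39 ± 0.29) was not called. In KO cells with FN 5 of 13 were called higher, against 9.23% of all genes, with Mmp14 at 3.70 ± 0.65, Sdc4 at 3.27 ± 0.45 and Mmp13 at 2.54 ± 0.42. The genotype difference in response to FN was called and negative for Mmp13 (-6.03 ± 0.60), Sdc4 (-3.60 ± 0.60) and Ext1 (-2.51 ± 0.35).

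Of 17 tested genes for signalling downstream of chemokine receptors, 7 were called higher and 5 lower in WT cells at LPS 10 ng/ml, against 23.3% and 26.1% of all genes, with a median log2 fold change of 0.22. Rgs16 passed the filter only through stimulated libraries. Rgs16, which shortens G-protein signals, rose by 6.63 ± 0.77 and Pik3r5, a subunit of PI3-kinase gamma, by 3.34 ± 0.23. Rgs1, of the same family as Rgs16, rose too in WT cells (2.11 ± 0.39). With FN, the other stimulus, Rgs1 fell in KO cells (-1.38 ± 0.39), and its genotype difference in response to FN was -3.61 ± 0.55. Gnai2 (0.17 ± 0.10) was not called.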
